A study of Homo sapiens with 12 samples.

Results

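Cell cycle and DNA replication genes were followed in human neural progenitors in which miR-10a or miR-10b was switched on. The 48 genes were a list drawn up by function, from origin licensing to anaphase, with earlier results of these data known. They were found as the rows of the deposited tables whose gene name was on the list, with repeated rows of a transcript dropped and, for a gene with several transcripts, the transcript with the highest mean count kept. All 48 were among the 25718 genes of the tables, and 35 of them were among the 11451 genes that passed the filter for testing, a mean above 10 counts over the 12 samples.

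A dividing cell licenses its replication origins in G1 by loading the MCM helicase with CDC6 and CDT1, copies its DNA in S phase behind that helicase, and divides under the control of CDK1, its cyclins and the mitotic kinases. Genes of those first steps are classical targets of E2F transcription factors, whereas mitotic genes peak later and are controlled through CHR elements and NF-Y boxes. In neural progenitors these transcripts mark cycling cells, and they are lost when a progenitor leaves the cycle and becomes a neuron.

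The cells were H9 human embryonic stem cells, an established line used at passage 31 to 45, transduced at a multiplicity of infection of 50 with a lentiviral vector that makes miR-10a or miR-10b, with a GFP reporter, when doxycycline is present. They were taken through 14 days of neural induction with patterning towards ventral midbrain (CT0.8 and Shh), and doxycycline was given from day 11 to 14 in the dox groups. The 4 groups, miR-10a dox, miR-10a control, miR-10b dox and miR-10b control, had 3 samples each. Controls carried the same vector and received no doxycycline, so that doxycycline itself and the miRNA cannot be told apart, and the cultures also held cells without the vector. The labels number the replicates without saying whether they were separate cultures, so the p-values measure the spread between these samples, which may be technical.

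Total counts ranged from 10545487 to 14165426 per sample, and within each vector every control was deeper than every dox sample. The part of this depth gap in the results was not tested. Levels are given below as CPM, the usual scaling of a count by the sample's total. Of the 12 pairs of replicates, 10 differed with a chi-square per degree of freedom of 1.224 to 1.931, while the pairs that contained miR-10b dox replicate 2 gave 3.174 and 4.107. Values without this library are therefore given for the member calls that were lost without it and for some others. No such values are given for the genes of the other lists. MIR10A, the miR-10a precursor, was counted at 731, 729 and 711 CPM in the miR-10a dox samples against 1.37, 0.988 and 0.641 in their controls. MIR10B was at 2662, 2541 and 2653 CPM in the miR-10b dox samples against 4.45, 2.89 and 3.31 in their controls. In every library the precursor thus stood where the label put it. Neural progenitor markers summed to between 11206 and 12999 CPM, with nestin (NES) at a mean of 4454 to 5160 CPM in the 4 groups. PAX6 and LMX1B were at 3 counts or fewer in every sample, and both have several listed transcripts. The pluripotency genes POU5F1, NANOG, ZFP42 and TDGF1 and the mesendoderm genes T, SOX17, EOMES, MIXL1 and GATA4 were also at 3 counts or fewer in every sample, as were 5 of the 6 neural crest markers. Of these genes, POU5F1, NANOG, TDGF1, T, EOMES and MIXL1 also have several listed transcripts, as do the neural crest markers TFAP2A, PAX3 and ETS1. Their low counts were therefore not read as absence of the RNA. Of the 7 listed pluripotency genes, 2 passed the filter, DPPA4 and DNMT3B, as did 2 of the 8 listed mesendoderm genes.

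The counts went with the number of listed transcripts. Reads common to more than 1 transcript appear not to be counted in the deposited files, which was not tested. Genes with 1 transcript held 92.84% of all counts, and the 22 list members with 1 transcript all passed the filter, with mean counts from 722 (CCNE2) to 27622 (CENPF). Of the 26 with several transcripts, 13 passed, from a mean of 15.4 counts for FOXM1 to 1357 for MKI67. ORC1, MCM2, MCM10, AURKB and BUB1 were at 0 counts in every sample. Another 8 genes, ORC6, MCM4, CDC45, PCNA, RRM2, AURKA, BIRC5 and KIF2C, had mean counts of 0.6 to 6.8. PCNA, the sliding clamp of the replication fork, had a mean of 1.0 counts, and MCM2, a helicase subunit, had 0, although its single-transcript partner MCM6 had a mean of 7112 counts. A low count of such a gene was not read as low expression, and genes with several transcripts that were tested (MKI67, CDK1, RFC3, MYBL2, MCM3, MCM7 and others) may be measured on part of their reads only.

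**Figure D1:**
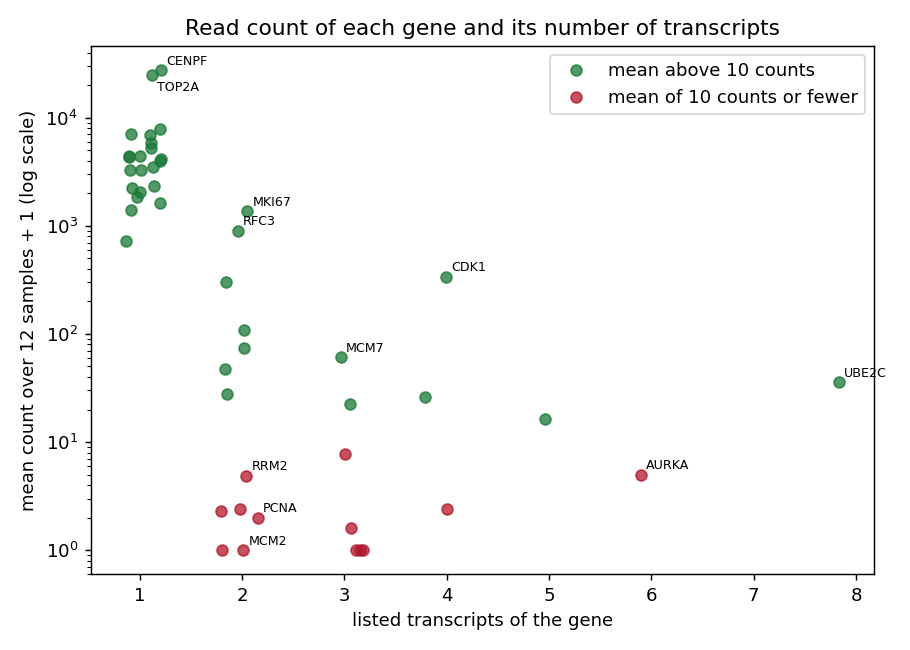
Mean count over the 12 samples plus 1 (log scale) of each of the 48 genes against its number of listed transcripts, with points spread sideways for visibility. All 22 genes with 1 transcript lie above the filter (green), while 13 of the 26 with several transcripts lie at a mean of 10 counts or fewer (red).

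Per length of transcript, the single-transcript members spanned a wide range of levels. TOP2A, the topoisomerase that untangles chromosomes, was highest with a mean of 349.9 RPKM over the 12 samples (330.3 to 377), and its range did not overlap that of the next gene. CCNB1, CENPF and CDC20 followed at 219, 218 and 212 RPKM, with overlapping ranges. The helicase subunits MCM6 and MCM5 were at 152 and 126 RPKM, the transcription factor E2F1 at 55.1 RPKM, the licensing factors CDC6 and CDT1 at 54.1 and 49.4 RPKM, and CCNE2, a G1/S cyclin, was lowest at 21.5 RPKM (19.4 to 23.1).

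E2F and CHR motifs in the regulatory sequences of the genes set 2 families apart. The promoters below are of 3 replication genes, then of CCNB2 and PLK1, and run from 250 bases before the start to 30 after it (RefSeq, GRCh38.p14, 5′ to 3′ on the strand of the gene). Capitals mark E2F motifs, CHR motifs and NF-Y boxes, each searched on both strands: TTTCCCGC, TTTCGCGC, TTTGGCGC or TTTGCCGC for E2F, TTTGAA or TTTAAA for CHR, and CCAAT for NF-Y.
CDC6: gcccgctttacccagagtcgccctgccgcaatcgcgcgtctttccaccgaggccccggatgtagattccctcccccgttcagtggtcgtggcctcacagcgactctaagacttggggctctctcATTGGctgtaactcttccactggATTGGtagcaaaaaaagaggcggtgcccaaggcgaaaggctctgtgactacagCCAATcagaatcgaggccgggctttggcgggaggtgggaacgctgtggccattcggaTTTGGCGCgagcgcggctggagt
MCM6: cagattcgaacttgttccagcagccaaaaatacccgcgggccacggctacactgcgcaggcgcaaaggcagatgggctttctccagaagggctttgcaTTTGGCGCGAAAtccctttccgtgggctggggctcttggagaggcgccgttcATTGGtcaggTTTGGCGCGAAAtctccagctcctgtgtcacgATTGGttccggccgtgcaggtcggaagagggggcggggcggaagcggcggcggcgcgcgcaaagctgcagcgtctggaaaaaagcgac
RFC3: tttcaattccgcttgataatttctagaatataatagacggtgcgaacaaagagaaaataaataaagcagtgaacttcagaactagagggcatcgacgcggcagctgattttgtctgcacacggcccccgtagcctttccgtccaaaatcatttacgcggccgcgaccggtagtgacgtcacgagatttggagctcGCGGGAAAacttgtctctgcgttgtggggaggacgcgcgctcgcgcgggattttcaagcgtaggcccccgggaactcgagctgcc
CCNB2: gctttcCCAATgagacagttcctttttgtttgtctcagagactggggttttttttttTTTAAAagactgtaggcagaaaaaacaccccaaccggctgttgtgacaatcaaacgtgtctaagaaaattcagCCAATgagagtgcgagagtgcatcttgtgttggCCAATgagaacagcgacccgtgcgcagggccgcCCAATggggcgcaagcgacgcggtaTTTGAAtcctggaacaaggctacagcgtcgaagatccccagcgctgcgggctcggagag
PLK1: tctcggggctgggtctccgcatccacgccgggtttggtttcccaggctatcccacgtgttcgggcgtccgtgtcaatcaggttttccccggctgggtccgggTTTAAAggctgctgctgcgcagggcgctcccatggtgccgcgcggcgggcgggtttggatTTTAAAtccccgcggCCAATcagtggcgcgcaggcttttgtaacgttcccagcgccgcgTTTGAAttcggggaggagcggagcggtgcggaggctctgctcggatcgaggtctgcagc
These stretches lie at chr17:40287629-40287908 (plus strand), chr2:135876414-135876693 (minus), chr13:33817899-33818178 (plus), chr15:59104896-59105175 (plus) and chr16:23678639-23678918 (plus). The CDC6 promoter held 1 E2F match and 3 NF-Y boxes, and that of RFC3 1 E2F match alone. The MCM6 promoter had 4 E2F matches that overlap in pairs, so that they form 2 places. CCNB2 showed 2 CHR matches and 4 NF-Y boxes and PLK1 had 3 CHR matches and 1 NF-Y box, with no E2F match in either.

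A promoter of 300 bases was at hand for 40 of the 48 genes (not for MCM4, MCM5, FOXM1, CCNE2, AURKA, BIRC5, TPX2 and UBE2C). An E2F match was present in 12 of 21 replication genes (57.1%) and in 0 of 11 genes of the mitotic apparatus, beside 3.33% of 27305 promoters in all and 5.09% of the promoters of 7952 tested genes. CHR matches showed the opposite distribution, with 1 of 21 replication genes (4.76%) and 9 of 11 mitotic genes (81.8%) beside 24.3% of all promoters. NF-Y boxes occurred in 30 of the 40 promoters (75%), beside 35.7% of all. They did not set the families apart, with 15 of 21 replication genes (71.4%) and 8 of 11 mitotic genes (72.7%). A match is a stretch of letters and says nothing about the binding of a factor in these cells.

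**Figure D2:**
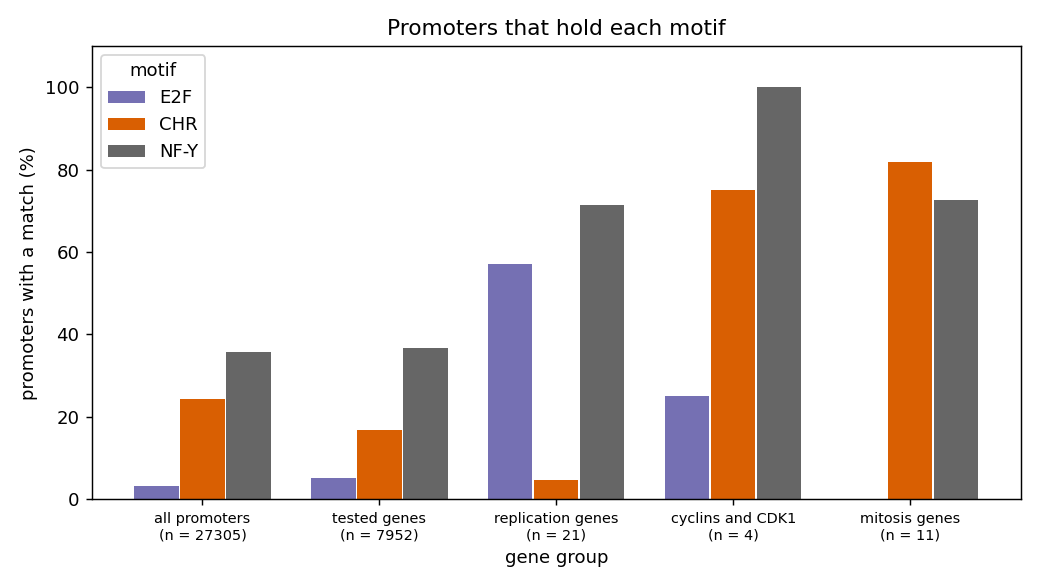
Share of promoters (y axis, percent) that hold an E2F, CHR or NF-Y motif on either strand, for all promoters, those of tested genes, and those of replication genes, cyclins with CDK1, and mitotic genes. E2F bars stand at 57.1% for replication genes and 0 for mitotic genes, and CHR bars at 4.76% and 81.8%.

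The miRNA itself was compared with the 3′UTRs of the genes. hsa-miR-10a-5p lies at chr17:48579904-48579926 on the minus strand (RefSeq, GRCh38.p14) and is shown with its seed, bases 2 to 8, in capitals.
hsa-miR-10a-5p: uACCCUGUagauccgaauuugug
miR-10b-5p has the same seed. The best match is the 8mer ACAGGGTA, followed by the 7mer ACAGGGT. In the longest annotated 3′UTR (GENCODE 44 on GRCh37, the build named hg19 in the submitters' processing notes), 1 of the 35 tested members had the 8mer, and 6 had the 7mer as their best match, CDC6, MCM5, MCM7, GINS2, CLSPN and CHAF1B. These are 2.86% and 17.1% of the members, beside 2.59% and 13.7% of 9259 tested genes with an annotated 3′UTR, so the shares were near the background. Matches in 3 of these genes are given with their flanks, the match in capitals, as DNA on the strand of the gene.
MKI67: tggtgcaccagACAGGGTAgctgtccccca
CDC6, second match: tagcagttggaACAGGGTtggttctgtca
MCM5, first match: agtgtgagggaACAGGGTctggaggcaga
MCM5, second match: gaacctgcttcACAGGGTtgtgcttaggg
They lie at chr10:129896270-129896277 (minus strand), chr17:38460472-38460478 (plus) and chr22:35820565-35820571 and chr22:35820892-35820898 (plus) on GRCh37. RFC3, MCM6, CCNA2, CCNB2, CDK1, TPX2 and the other tested members without a name above had no such match in this window, and what the matches do was not tested. The longest annotated 3′UTR need not be that of the counted transcript. For GINS2 and CHAF1B it has 2014 and 2649 nt, while the whole counted transcripts have 1180 and 2279 nt. For CDC6 it has 2656 nt, beside 3053 nt for the whole counted transcript. Whether the printed matches, those of CDC6 and MCM5 included, lie in the counted transcripts was not checked.

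With doxycycline, part of the replication genes fell in the miR-10b cultures, while none of the 35 tested genes passed the threshold in the miR-10a cultures. With miR-10b, 11 of the 35 fell, CDC6, MCM5, MCM6, RFC3, POLA1, TYMS, CHAF1A, CCNA2, CCNB2, CDK1 and TPX2, by 0.10 to 0.42 on the log2 scale. This is 31.4% of the members, where 7.15% of all tested genes fell. MYBL2 and PLK1 rose, 2 of 35, where 8.18% of all tested genes rose. Counts were tested by the quasi-likelihood method of edgeR, and adjusted p-values (Benjamini-Hochberg) over all 11451 genes had to be under 0.05. The members were counted deeper than most genes, with a median of 2041 mean counts against 221.8 over all tested genes. Among the genes with a mean above 500 counts, a limit set after the counts were seen, 10 of 24 members (41.7%) fell, beside 13.3% of 4298 genes. The groups did not overlap, with every dox sample lower, for 14 of the 35 members, beside 12.3% of all tested genes, and with every dox sample higher for 3 (MYBL2, PLK1 and CDC20), beside 16.3%. In these bulk cultures, fewer cells of a type and less RNA per cell cannot be told apart.

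The median log2 fold change of the members with miR-10b was -0.079, beside 0.021 over all tested genes, and 27 of the 35 lay below 0. With DESeq2, 13 members fell and 1 rose, while 6 of the 35 got no adjusted p. With TMM scaling 11 fell and 2 rose, although the balance over all genes moved: of all genes called with miR-10b, 53.4% were higher by total counts, 44.3% with TMM and 38.1% with DESeq2. Without miR-10b dox replicate 2, 9 members fell and 1 (PLK1) rose, and CCNB2 (-0.09) and CDK1 (-0.21) were no longer past the threshold.

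**Figure D3:**
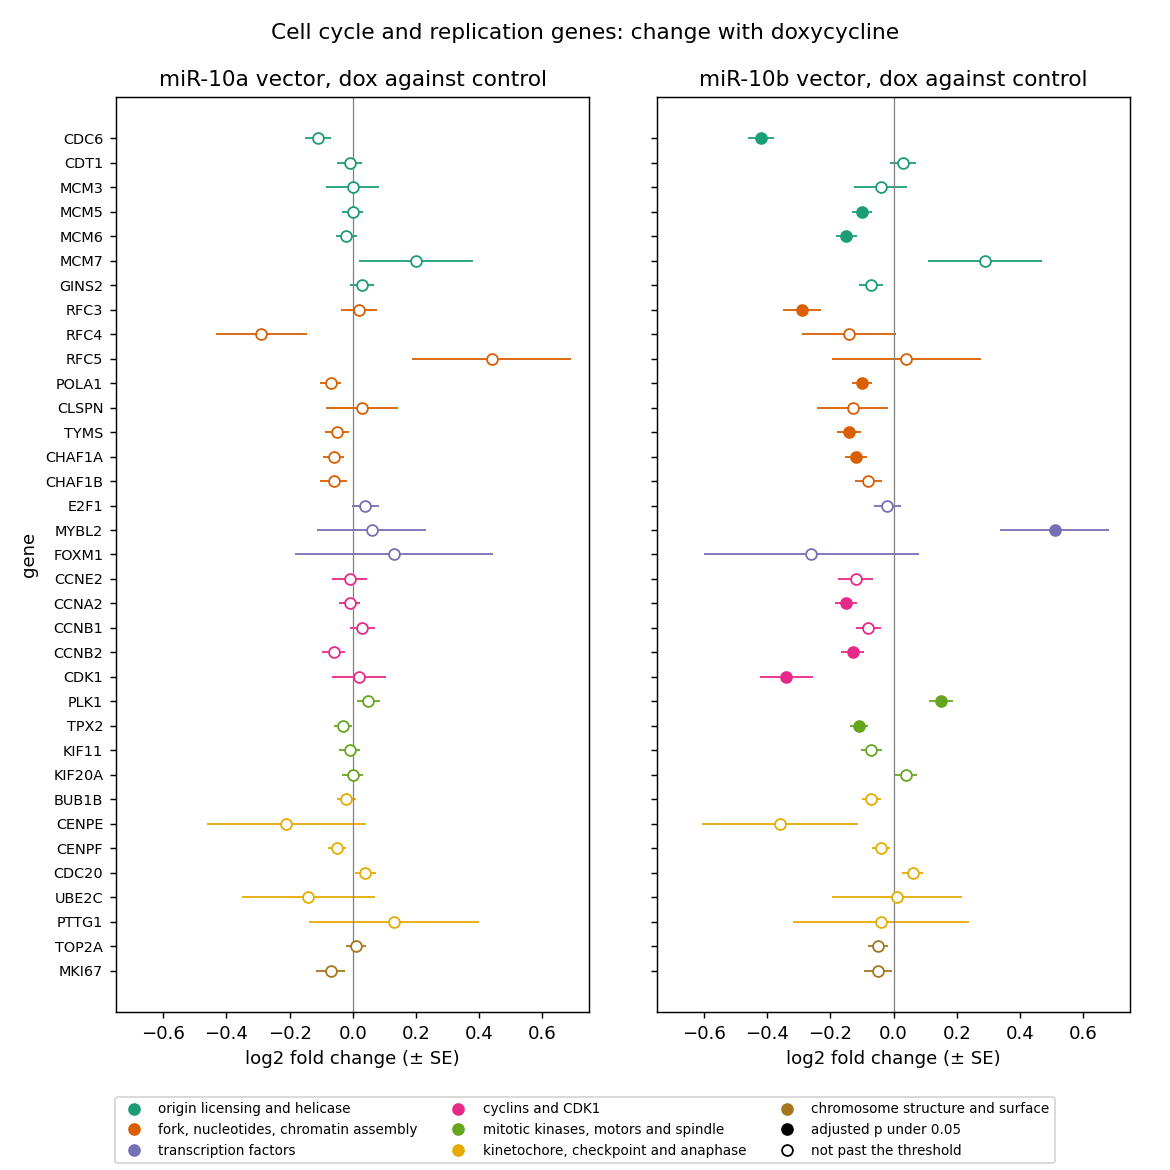
Log2 fold change with doxycycline (x axis, ± SE from the edgeR fit) of the 35 tested genes in the miR-10a cultures (left) and the miR-10b cultures (right), coloured by role. Filled points passed the threshold, 0 on the left and 13 on the right, of which 11 lie below 0.

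Among the licensing and helicase genes, CDC6, which loads the MCM helicase on origins (chr17:38444131-38460909, plus strand, GRCh37), fell furthest. It stood at 173, 181 and 178 CPM in the miR-10b controls and at 138, 128 and 130.4 CPM in the miR-10b dox samples. All 3 dox samples lay below all controls, and the difference was -0.42 ± 0.041 on the log2 scale (SE, 3 against 3 samples, adjusted p = 8.4e-10 by edgeR), so that CDC6 fell by 25.4%. CDC6 in the miR-10a cultures was at 183, 173 and 191 CPM without and 172, 168 and 167 CPM with doxycycline. These groups did not overlap either, but the difference of -0.11 ± 0.040 did not pass the threshold (adjusted p = 0.25 by edgeR). An exact two-sided permutation test of 3 against 3 samples cannot go below 0.1, which was its value for CDC6 with both vectors and for the other members whose groups did not overlap.

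MCM6, a subunit of the replicative helicase, stood at 577, 583 and 582 CPM in the miR-10b controls and at 531, 490.2 and 544 CPM in the miR-10b dox samples. The dox samples were again all lower, the second by most, at -0.15 ± 0.033 (adjusted p = 0.00099). Without that second dox sample the difference was -0.11, and the call was kept. MCM5, a second helicase subunit, was at 317, 311 and 317 CPM without and 305, 295 and 285 CPM with doxycycline, a difference of -0.10 ± 0.033 close to the threshold (adjusted p = 0.042, edgeR). This call was lost at -0.11 to -0.07 without miR-10a dox replicate 1, miR-10a control replicate 1 or 3, miR-10b dox replicate 3 or any 1 of the miR-10b controls. With miR-10a the same subunits were within their spread, MCM6 at 612, 592 and 618 CPM against 598, 611 and 589.7 CPM with doxycycline. MCM5 was at 344, 335 and 334 CPM there without and 336, 335 and 339 CPM with doxycycline. The licensing factor CDT1, the partner of CDC6, overlapped between groups, at 125, 132 and 121 CPM in the miR-10b controls and 126, 134 and 126 CPM with doxycycline (0.03 ± 0.042, adjusted p = 0.72 by edgeR). With miR-10a, CDT1 was at 135, 142 and 134 CPM without and 136, 140.2 and 132 CPM with doxycycline. GINS2, MCM3 and MCM7 of the same group were at -0.07, -0.04 and 0.29 with miR-10b and did not pass the threshold, MCM7 with an SE of 0.181 on 59.6 mean counts.

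At the replication fork, RFC3, a subunit of the clamp loader (chr13:34392206-34540695, plus strand, GRCh37), was at 74.7, 73.6 and 81.7 CPM in the miR-10b controls and at 66.0, 55.9 and 65.8 CPM with doxycycline. The groups did not overlap, with replicate 2 the lowest, and the difference was -0.29 ± 0.059 (adjusted p = 0.00043 by edgeR), or -0.22 without that replicate. RFC3 in the miR-10a cultures was at 77.8, 71.1 and 79.7 CPM without and 75.5, 74.3 and 81.8 CPM with doxycycline, with no order between the groups (0.02 ± 0.058). TYMS, which makes the thymidylate for DNA, was at 183, 184 and 178 CPM in the miR-10b controls and 167, 161 and 167 CPM with doxycycline. This was a difference of -0.14 ± 0.038 (adjusted p = 0.0096, edgeR), a call that was lost at -0.13 without miR-10b control replicate 2. With miR-10a TYMS was at 191, 190.3 and 200.2 CPM without and 190, 192 and 179 CPM with doxycycline.

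POLA1, the catalytic subunit of the polymerase that starts new strands, was at 425, 432 and 435 CPM in the miR-10b controls and 412, 398 and 392 CPM with doxycycline (-0.10 ± 0.033, adjusted p = 0.028 by edgeR). In the miR-10a cultures it was at 463, 428 and 457 CPM without and 426, 435 and 423 CPM with doxycycline, where 1 dox sample lay above the lowest control. CHAF1A, the large subunit of the factor that places histones behind the fork, was at 278, 279 and 278 CPM in the miR-10b controls and 246, 267 and 256 CPM with doxycycline. Its controls were nearly equal, and the difference was -0.12 ± 0.035 (adjusted p = 0.015, edgeR). CHAF1A in the miR-10a cultures was at 298, 312 and 314 CPM without and 292, 292 and 299 CPM with doxycycline, overlapping by a single sample. The call of POLA1 was lost at -0.10 to -0.09 without miR-10b dox replicate 3 or miR-10b control replicate 2 or 3, and that of CHAF1A at -0.12 to -0.09 without miR-10b dox replicate 1 or miR-10b control replicate 2. CHAF1B, RFC4, RFC5 and CLSPN were at -0.08, -0.14, 0.04 and -0.13 with miR-10b and did not pass the threshold.

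The cyclin group fell in part. CCNA2, the S and G2 cyclin, was at 350.4, 364 and 361 CPM in the miR-10b controls and 329.5, 312 and 329 CPM with doxycycline, without overlap (-0.15 ± 0.034, adjusted p = 0.0019 by edgeR). Without miR-10b dox replicate 2 the CCNA2 difference was -0.12, and the call was kept. CCNB2, a mitotic cyclin, was at 276, 274 and 275 CPM in the controls and 258, 238 and 258 CPM with doxycycline (-0.13 ± 0.037, adjusted p = 0.012 by edgeR). CDK1, the kinase that drives entry into mitosis, was at 29.8, 31.1 and 31.9 CPM and at 26.9, 20.0 and 26.6 CPM (-0.34 ± 0.084, adjusted p = 0.0045 by edgeR). For CCNB2 and CDK1 the second dox sample was the lowest by far, and both calls rested on it. CCNB1, the other mitotic cyclin, overlapped between the groups at 466, 481 and 512 CPM without and 471, 428 and 482 CPM with doxycycline (-0.08 ± 0.040, adjusted p = 0.19 by edgeR).

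In the miR-10a cultures CCNA2 was at 371, 361 and 382 CPM without and 358, 372 and 373 CPM with doxycycline, and CCNB2 at 277, 269 and 293 against 269.8, 269.5 and 266 CPM. CDK1 was there at 27.9, 25 and 26.6 CPM without and 29.2, 26.8 and 24.4 CPM with doxycycline, and CCNB1 at 481, 442 and 487 against 482, 480.3 and 474 CPM. All 4 overlapped between the groups. CCNE2, which acts at the entry into S phase, was at -0.12 ± 0.055 with miR-10b and -0.01 ± 0.055 with miR-10a and passed the threshold with neither vector.

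Of the mitotic kinases, motors and spindle genes, 1 fell and 1 rose with miR-10b. TPX2, a spindle assembly factor that activates Aurora A, was at 650.1, 656 and 649 CPM in the miR-10b controls and 607, 601 and 604 CPM with doxycycline, with a small spread in both groups (-0.11 ± 0.029, adjusted p = 0.0078 by edgeR). PLK1, a kinase of mitotic entry and spindle assembly (chr16:23688977-23701688, plus strand, GRCh37), rose from 317, 314 and 308 CPM to 332, 366 and 343 CPM (0.15 ± 0.037, adjusted p = 0.0039 by edgeR). All 3 dox samples lay above all controls. Without miR-10b dox replicate 2 the rise of PLK1 was 0.11, and the call was kept. With miR-10a TPX2 was at 653, 631 and 654 CPM without and 646, 629 and 625 CPM with doxycycline, and PLK1 at 325, 348 and 329 against 349, 354 and 334 CPM, both with overlap. The motors KIF11 and KIF20A, the checkpoint kinase BUB1B, the kinetochore protein CENPF and the anaphase activator CDC20 were at -0.07, 0.04, -0.07, -0.04 and 0.06 with miR-10b and did not pass the threshold, and neither did CENPE, UBE2C and PTTG1, with SEs of 0.206 to 0.279 on 21.5 to 34.8 mean counts.

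The common proliferation markers stayed within their spread. MKI67, which encodes the Ki-67 antigen, was at 109.5, 111 and 118 CPM in the miR-10b controls and 110.3, 107 and 109.5 CPM with doxycycline (-0.05 ± 0.045, adjusted p = 0.49 by edgeR). In the miR-10a cultures it was at 115, 113 and 107 CPM without and 101, 113 and 105 CPM with doxycycline (-0.07 ± 0.046). The groups overlapped with both vectors. TOP2A was at 2029, 2064 and 2169 CPM in the miR-10b controls and 2072, 1900 and 2071 CPM with doxycycline (-0.05 ± 0.032, adjusted p = 0.31 by edgeR). With miR-10a TOP2A was at 2008, 1915 and 1985 CPM without and 1990, 1955 and 1996 CPM with doxycycline.

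Of the transcription factors, E2F1, an activator of S phase genes, was at 149, 139 and 149.9 CPM in the miR-10b controls and 143, 150.1 and 139 CPM with doxycycline (-0.02 ± 0.043, adjusted p = 0.81 by edgeR). In the miR-10a cultures E2F1 was at 141, 155 and 157 CPM without and 159, 151 and 153 CPM with doxycycline, again overlapping. MYBL2, which works with FOXM1 on late cell cycle genes, rose with miR-10b from 3.26, 2.96 and 3.08 CPM to 4.12, 4.46 and 4.66 CPM (0.51 ± 0.172, adjusted p = 0.039 by edgeR). These values are of 1 of its 2 transcripts, at 46.7 mean counts, and without any 1 of the 6 miR-10b libraries the call was lost at 0.47 to 0.56. MYBL2 in the miR-10a cultures was at 3.78, 3.53 and 4.09 CPM without and 3.26, 4.88 and 3.6 CPM with doxycycline. FOXM1 was at -0.26 ± 0.342 with miR-10b on 15.4 mean counts.

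**Figure D4:**
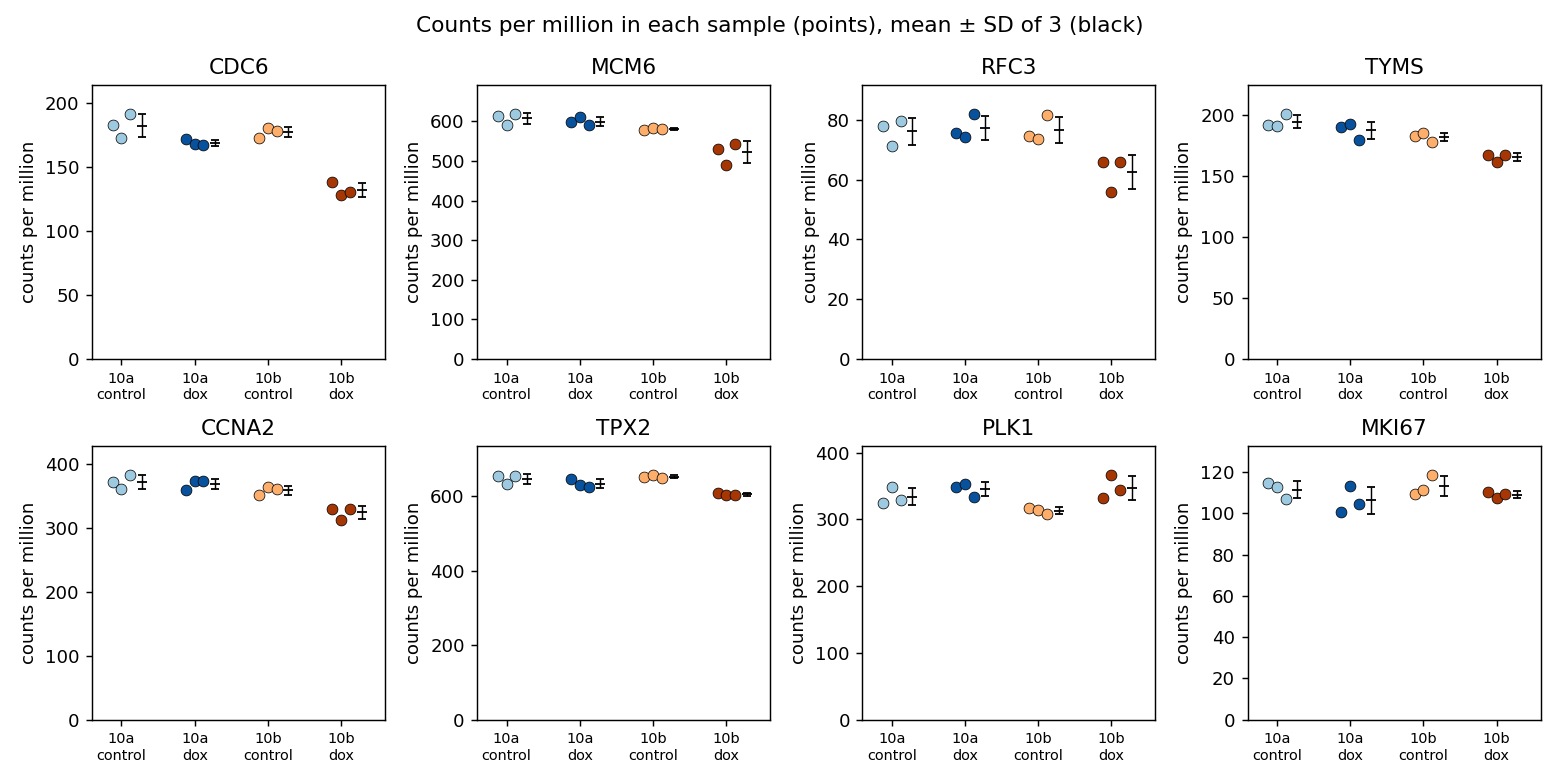
CPM in each of the 12 samples (points) with the mean and SD of 3 beside them for 8 genes, each on an axis that starts at 0. CDC6, MCM6, RFC3, TYMS, CCNA2 and TPX2 lie lower in all 3 miR-10b dox samples than in their controls, PLK1 lies higher, and MKI67 overlaps.

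With miR-10a, edgeR called 0 of the 35 members higher and 0 lower, where 0.472% of all tested genes rose and 0.742% fell. At an unadjusted p under 0.05 there were 2, CDC6 and POLA1, both lower, beside 11.2% of all tested genes in either direction. DESeq2 called 0, but gave 9 of the 35 no adjusted p. The groups did not overlap for 4 members with every dox sample lower (CDC6, RFC4, CHAF1B and CENPF), beside 7.75% of all tested genes, and for 0 with every dox sample higher, beside 10.5%. The median of the members was -0.008, beside 0.010 over all tested genes. Of all genes called with miR-10a, 38.8% were higher by total counts and 27.9% with DESeq2.

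Whether the vectors differed was tested as the miR-10b change minus the miR-10a change in the same fit. Of the 35 members, 2 passed, both lower with miR-10b: CDC6 by -0.32 ± 0.057 (adjusted p = 0.00085 by edgeR) and RFC3 by -0.31 ± 0.082 (adjusted p = 0.036 by edgeR), where 1.38% of all tested genes were lower. Higher with miR-10b were 0 of 35, beside 0.576% of all tested genes, and also 0 by DESeq2 and 0 at an unadjusted p under 0.05. In this contrast DESeq2 gave 9 of the 35 no adjusted p. The call of RFC3 was lost at -0.33 to -0.24 without miR-10a dox replicate 1 or 3, miR-10a control replicate 1 or 2, miR-10b dox replicate 2 or miR-10b control replicate 3, and that of CDC6 was kept in all 12 fits without 1 library. For CDK1 the difference of -0.36 ± 0.120 did not pass (adjusted p = 0.13 by edgeR), nor did those of CCNA2 (-0.13 ± 0.047) and MCM6 (-0.14 ± 0.047). The other 11 members called with miR-10b were thus not shown to respond differently to the 2 vectors. Of all genes called in this contrast, 29.5% were higher by total counts and 11.8% with DESeq2.

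The mean of both changes, which shares its samples with the single-vector comparisons, was lower for 9 members, CDC6, MCM6, RFC3, POLA1, TYMS, CHAF1A, CCNA2, CCNB2 and TPX2, beside 6.22% of all tested genes. It was higher for 1, PLK1 (0.10 ± 0.026), beside 7.67%. The falls ran from -0.27 ± 0.029 for CDC6 and -0.14 ± 0.041 for RFC3 to -0.07 ± 0.021 for TPX2. Without miR-10a control replicate 3, 4 of the 9 were left, and CCNA2, CCNB2, RFC3, TPX2 and TYMS lost the call. Over the 12 fits without 1 library, RFC3 lost the call in 6 (-0.13 to -0.10: miR-10a dox 1 or 2, miR-10a control 1 or 3, miR-10b dox 2 or miR-10b control 3 left out) and TPX2 in 4 (-0.07: miR-10a dox 3, miR-10a control 1 or 3 or miR-10b control 2). CCNA2 lost it in 3 (-0.07: miR-10a dox 1, miR-10a control 3 or miR-10b control 2), TYMS in 2 (-0.08: miR-10a dox 3 or miR-10a control 3) and CCNB2 in 1 (-0.08: miR-10a control 3). Of all genes called in this contrast, 55.2% were higher by total counts, 43.8% with TMM and 38.4% with DESeq2.

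The members were also summarised sample by sample. Over the 24 members with a mean above 500 counts, the median deviation from each gene's mean over the 12 samples was -0.059, -0.093 and -0.077 (log2) in the miR-10b dox samples and -0.008, 0.016 and 0.023 in their controls. It was 0.028, 0.039 and 0.009 in the miR-10a dox samples and 0.061, 0.032 and 0.066 in their controls. The second miR-10b dox sample was the lowest, with members from -0.38 to 0.13, and all 3 lay below each of the other 9 samples.

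**Figure D5:**
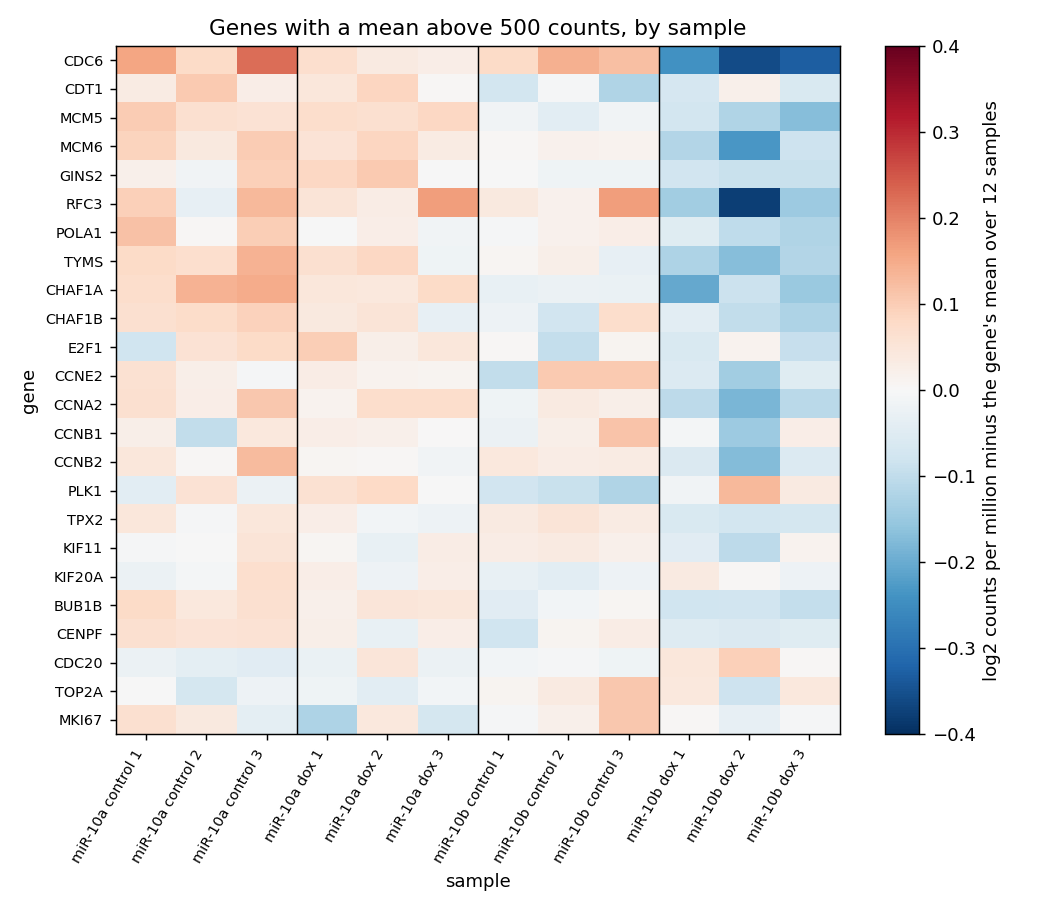
Deviation of each of the 24 genes with a mean above 500 counts (rows) from its own mean over the 12 samples (columns), in log2 CPM, blue for lower and red for higher. The 3 miR-10b dox columns are blue for most rows, deepest for CDC6 (row at the top) and for RFC3 in replicate 2, while PLK1 and CDC20 are not.

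Over all tested genes the controls of the vectors were not alike. In cultures that never received doxycycline, 3 of the 35 members (8.57%) were lower in the miR-10b than in the miR-10a controls. This share was near the background of 6.72% of all tested genes. The 3 were CDT1 (-0.12 ± 0.041), MCM5 (-0.10 ± 0.032) and CHAF1A (-0.15 ± 0.034, adjusted p = 0.0022 by edgeR). Higher were 0 of 35 by edgeR, beside 7.41% of all tested genes, with 2 higher at an unadjusted p under 0.05 (CDK1 and TOP2A) and 0 by DESeq2, which gave 1 member no adjusted p. With DESeq2 or TMM only CHAF1A of the 3 remained. Without miR-10b dox replicate 2, 7 were lower and 2 higher, with BUB1B, CENPF, PLK1 and TYMS joining the lower and CDK1 and TOP2A the higher ones. CDT1 lost its call at -0.14 to -0.09 without miR-10a dox replicate 1, any miR-10a control, or miR-10b control replicate 1 or 3, and MCM5 at -0.11 to -0.09 without any 1 of the 6 controls. The median of the members was -0.049, beside -0.010 over all tested genes, and MCM5 and CHAF1A, which fell with doxycycline in the miR-10b cultures, started there from lower controls. The neural progenitor markers also differed between these controls, at a sum of 12848 to 12999 CPM with the miR-10b vector and 11551 to 11651 CPM with the miR-10a vector. The ventral midbrain markers summed to 1428 to 1449 CPM with the miR-10b vector and 1143 to 1162 CPM with the miR-10a vector. Of 10 tested midbrain markers, 5 were higher with the miR-10b vector and 1 lower, beside 7.41% and 6.72% of all tested genes. The vector and the culture that carried it cannot be told apart here.

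Further replication genes, on a list of 37 that were not members, were lower with miR-10b in 9 of 26 tested, beside 7.15% of all tested genes, and higher in 0, with a median of -0.105. Like the members, this list and those below were chosen with earlier results of these data known, so they are no independent support. RRM1, the large subunit of ribonucleotide reductase, fell from 687 ± 21.0 to 559 ± 26.6 CPM (SD, n = 3; -0.30 ± 0.034, adjusted p = 4.7e-08 by edgeR). GINS4, of the complex that activates the helicase, fell from 198 ± 5.10 to 168 ± 6.26 CPM (-0.24 ± 0.037), and RPA1, which coats single-stranded DNA, from 478 ± 8 to 422 ± 14.5 CPM (-0.18 ± 0.033). GINS1, PRIM2 (the large primase subunit) and RPA3 fell by 0.15, 0.21 and 0.22 on the log2 scale. With miR-10a, 0 of the 26 passed in either direction, where 0.472% of all tested genes rose and 0.742% fell. These 6 named genes were between -0.07 and -0.02 there. The difference between the vectors passed for 2 of the 26, GINS4 and RRM1. Both were lower with miR-10b, beside 1.38% of all tested genes.

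Mitotic genes outside the members were lower with miR-10b in 6 of 38 tested, beside the same 7.15%, and higher in 0, with a median of -0.059. MAD2L1 and BUB3, of the spindle checkpoint, were both at -0.18, the kinetochore protein NDC80 at -0.17, the motor KIF15 at -0.14 and the spindle pole protein ASPM at -0.11. With miR-10a 0 of the 38 passed, where 0.472% of all tested genes rose and 0.742% fell. None of the 38 passed in the test of the difference, where 0.576% of all tested genes were higher and 1.38% lower. With miR-10b, the share of mitotic genes that fell was thus below that of the replication genes, a difference that was not tested.

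The regulators of G1 were split. Of 16 tested G1 cyclins, kinases, E2F and pocket protein genes, 4 fell with miR-10b and 2 rose, beside 7.15% and 8.18% of all tested genes. E2F7, a repressor of the E2F family, fell from 221 ± 0.271 to 166 ± 5.09 CPM (SD, n = 3; -0.41 ± 0.035, adjusted p = 5.2e-11 by edgeR). It was the one of the 16 called with miR-10a, from 228 to 201 CPM (-0.18, adjusted p = 0.0019 by edgeR), beside 0.742% of all tested genes that fell. Its change also differed between the vectors (-0.23 ± 0.050), where 1.38% of all tested genes were lower. The cyclins CCND1 and CCNE1, which drive G1 cells towards S phase, fell by 0.16 and 0.24 on the log2 scale, and MYC by 0.25. RBL2, a pocket protein that holds E2F targets down, rose by 0.14 ± 0.039 and E2F2 by 0.15 ± 0.047. Of 7 CDK inhibitors 3 were tested, and 2 rose with miR-10b. CDKN1B (p27) went from 190.3 ± 2.87 to 204 ± 5.57 CPM (0.10 ± 0.035, adjusted p = 0.046 by edgeR), and CDKN2C, which is named because of its call, from 8.26 ± 0.513 to 10.3 ± 1.13 CPM. CDKN1A (p21) has 5 transcripts and 5.8 mean counts, and could not be tested.

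Of 15 tested genes of the DNA damage response, 3 fell with miR-10b, beside 7.15% of all tested genes, among them BRCA2 (-0.17 ± 0.052) and RAD54L (-0.27 ± 0.090), both of homologous recombination, and 1 rose, H2AFX, the histone variant that is phosphorylated at breaks (0.15 ± 0.030), beside 8.18%. With miR-10a, BRCA2 was at -0.20 (adjusted p = 0.034) and H2AFX at 0.12 (adjusted p = 0.036, edgeR), both called, beside 0.742% of all tested genes that fell and 0.472% that rose. Of 11 tested p53 targets 1 rose with miR-10b, the antiproliferative gene BTG2 (0.14 ± 0.046), and 0 fell, which is near the background of 8.18% of all tested genes that rose. PLK3 passed over both vectors only (0.15 ± 0.047).

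In the miR-10b cultures, where part of the replication genes fell, part of the neuron markers rose. Summed over the list of 11 postmitotic neuron markers, of which 6 were tested, the level was 1080 to 1142 CPM in the miR-10b dox samples and 974 to 1009 CPM in their controls, against 994 to 1015 and 962 to 984 CPM in the miR-10a dox and control samples. Of the 6, 3 rose with miR-10b and 0 fell, beside 8.18% and 7.15% of all tested genes. Those that rose were MAP2, a dendrite protein (0.28 ± 0.035, adjusted p = 2.2e-07 by edgeR), NEUROD1, a factor of neuronal differentiation (0.24 ± 0.061), and INA, a neuronal filament protein (0.09 ± 0.031). ELAVL3, on the same list and with several listed transcripts, was at 3 counts or fewer in every sample. With miR-10a 0 of the 6 passed, where 0.472% of all tested genes rose and 0.742% fell. The difference between the vectors passed for 1 of the 6, MAP2, higher with miR-10b, beside 0.576% of all tested genes. Of 10 tested neural progenitor markers 4 fell with miR-10b, beside 7.15% of all tested genes, among them SOX3 (-0.40 ± 0.051), NES (-0.14 ± 0.027) and HES5 (-0.16 ± 0.054). Another 2 rose, beside 8.18%, among them NOTCH1 (0.15 ± 0.033). The sum of the progenitor markers was 12413 to 12609 CPM with doxycycline against 12848 to 12999 CPM in the controls. Of 10 tested ventral midbrain markers 2 fell with miR-10b, CORIN (-0.77 ± 0.090) and WNT1 (-0.65 ± 0.064), beside 7.15% of all tested genes. Their list summed to 1353 to 1418 CPM with doxycycline against 1428 to 1449 CPM without. WNT1 was also called lower with miR-10a, 1 of the 10, beside 0.742% of all tested genes. Over both vectors 3 of the 10 were lower, CORIN, MSX1 and WNT1, beside 6.22%. The difference between the vectors passed for 0 of the 10, where 0.576% of all tested genes were higher and 1.38% lower. The part of these shifts in the changes of the cell cycle genes was not tested. Pluripotency markers summed to 103.5 to 112.6 CPM in the miR-10b dox samples and 106.7 to 112 CPM in their controls. In the miR-10a cultures they summed to 143.6 to 156.7 CPM with doxycycline and 141.2 to 150 CPM without. Mesendoderm and neural crest markers summed to at most 10.5 CPM in any sample. None of these lists had a call with doxycycline with either vector. Between the controls, 1 of the 2 tested pluripotency genes, DPPA4, was lower with the miR-10b vector, beside 6.72% of all tested genes.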

How the data were processed

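RNA-seq was measured in 12 samples of 4 groups with 3 replicates each, mapped from the sample labels. The authors deposited raw counts per RefSeq transcript, from 50-bp single-end reads, and the submitters' processing notes name STAR, featureCounts, Subread and hg19 without versions. Each table held 51799 rows for 48101 transcripts, and 3698 repeated rows were dropped. Genes with 1 transcript held 92.84% of the counts.

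For genes with a mean above 10 counts, the deposited counts entered a single fit of the 4 group means (edgeR 4.0.16, R 4.3.3, glmQLFit and glmQLFTest), scaled by total counts. Benjamini-Hochberg adjustment ran over all 11451 tested genes (threshold 0.05), and the code was tested on simulated data. RPKM values are CPM per kilobase of the transcript. The alternatives were DESeq2 1.42.0, TMM scaling, other filters, counts summed over transcripts, one vector's samples alone, a replicate block and leaving out each sample. A count of 3, taken as the floor, equals 0.212 to 0.284 CPM (counting error only).

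Members and lists were chosen with earlier results of these data known. Values per sample are printed for the precursors, for MKI67, PCNA, MCM2, CCNB1, E2F1 and TOP2A where they passed the filter, and for members past the threshold in any contrast, at most 4 per role by p over both vectors. Of other lists, genes past the threshold over both vectors are named, at most 6 per list, with CDKN1A. Motifs were searched in RefSeq promoters (GRCh38.p14) and GENCODE 44 3′UTRs (GRCh37), the latter annotated for 80.9% of tested genes. One sequence match is not reported here. Python 3.11.15 with pandas 2.3.3, scipy 1.17.1 and matplotlib 3.10.9 was used.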

Additional observations from a re-analysis of the deposited data

Results flagged for a closer look

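The change with doxycycline differed between the vectors, by the test of the difference itself, for 2 members. CDC6 fell further with miR-10b than with miR-10a by -0.32 on the log2 scale (edgeR adjusted p = 0.00085, lower in 3 of 3 miR-10b dox samples than in any control), and the value without 1 library ranged from -0.35 to -0.28. RFC3 differed by -0.31 (edgeR adjusted p = 0.036), or -0.24 without miR-10b dox replicate 2, where the call was lost. No member moved in opposite directions in every sample of the 2 vectors.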

How the results depend on the processing

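Of the counts of members called, those with miR-10a were 0 in each direction under every alternative run, although DESeq2 gave 9 of the 35 no adjusted p there. With miR-10b the number higher went from 2 to 1 with DESeq2, without a filter, with a mean above 50 counts and with the replicate block, in each case by the loss of MYBL2, which got no adjusted p with DESeq2 or at a mean above 50, and ranged from 1 to 2 without 1 library. The number lower was 13 with DESeq2 and, without 1 library, ranged from 7 (without miR-10b control replicate 2, which lost CHAF1A, MCM5, POLA1 and TYMS) to 11. It was 9 in the fit of the miR-10b samples alone and 9 with the replicate block, both by the loss of MCM5 and POLA1. Without a filter it was 10, by the loss of MCM5. Over both vectors the number lower ranged from 4 to 10 without 1 library, and for the difference between the vectors from 1 to 3. Between the controls the number higher went from 0 to 1 with TMM (CDK1) and to 2 without a filter (CDK1 and TOP2A), and the number lower from 3 to 1 with TMM, DESeq2 and no filter; without 1 library they ranged from 0 to 2 and from 1 to 7. The causes were not tested. Over all tested genes, same-numbered dox and control samples did not deviate together (correlations of -0.032 to 0.008, against -0.022 to 0.039 for the other pairs). Counting noise also lowers such correlations, so they cannot decide whether the numbers mark pairs. With the replicate block, 9 members fell and 1 rose with miR-10b, 9 fell and 1 rose over both vectors, and 2 were lower in the difference; the controls were not compared with a block. Of 512 alternative values of single members, 444 kept their call, 68 lost it and 0 reversed. Of 672 alternative counts in the other lists, 564 stayed within 1.5 times and 108 did not. In the fits of 1 library left out, MCM5 kept its miR-10b call in 5 of 12, POLA1 in 9, CHAF1A in 10, and CDC6, MCM6, RFC3, CCNA2, PLK1 and TPX2 in all 12. Depth limits the 13 tested members with several transcripts, at a median of 59.6 mean counts against 4034 for those with 1.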
